A study of Rattus norvegicus with 10 samples.

Results

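Echdc2 and 8 related enzymes of fatty acid and branched-chain amino acid breakdown were followed in the abdominal aorta of 2 inbred rat strains, Brown Norway (BN) and LOU. The related enzymes were Echs1, Ech1, Hadha, Hadhb, Ehhadh, Auh, Eci1 and Eci2, and all probe sets annotated to these 9 genes were used whatever their values, 10 of 15866 probe sets and 9 of 10411 named genes. Echdc2 was chosen because its signal was missing in BN, so its strain difference is given as a description and was not tested. The 8 relatives were taken for their place in the family. Total RNA of untreated rats was labelled with biotin and hybridised to Affymetrix 3′ expression arrays, 5 per strain. Rats of both strains were labelled as 5 weeks old, while the housing notes speak of up to 18 weeks. The tissue label is abdominal aorta on all arrays, the extraction notes also mention thoracic aorta, and sex is not given. The labels do not state that each array is a separate rat, so p-values measure only the spread between arrays, which may be technical.

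Mitochondria shorten fatty acids in a cycle of 4 steps, in which an acyl-CoA is oxidised, hydrated by an enoyl-CoA hydratase, oxidised again and cleaved by a thiolase. Isomerases bring the double bonds of unsaturated fatty acids into the position the hydratases accept, and peroxisomes run a similar cycle on very long chains. Brown adipocytes, which occur in the fat around the aorta, burn fat for heat and hold much of this machinery. Echdc2 is a mitochondrial protein with an enoyl-CoA hydratase domain, and its own substrate is less well settled than those of its relatives. The comparison asked whether the relatives were higher in the strain in which Echdc2 gave no signal.

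The promoter windows below, 250 bases before to 50 after the transcript start, are the RefSeq sequences of the GRCr8 assembly, which comes from a BN rat. They are shown because Echdc2 gave no signal in BN, and because Hadha and Hadhb start head to head. Signals of Hadha and Hadhb moved closely together (Pearson r 0.99 after centring within strains). So did those of Ech1 and Eci1 (0.98), which lie on different chromosomes. No LOU sequence is shown, so the windows do not compare the strains. Capitals mark the GC box, GGGCGG or its reverse complement CCGCCC. The Echdc2 window lies at chr5:128144636-128144935 on the plus strand, that of Hadha at chr6:31907551-31907850 on the plus strand and that of Hadhb at chr6:31907451-31907750 on the minus strand. The annotated Echdc2 gene begins at 128144241, so its window lies inside the gene, and no window at a start further upstream was read.
Echdc2: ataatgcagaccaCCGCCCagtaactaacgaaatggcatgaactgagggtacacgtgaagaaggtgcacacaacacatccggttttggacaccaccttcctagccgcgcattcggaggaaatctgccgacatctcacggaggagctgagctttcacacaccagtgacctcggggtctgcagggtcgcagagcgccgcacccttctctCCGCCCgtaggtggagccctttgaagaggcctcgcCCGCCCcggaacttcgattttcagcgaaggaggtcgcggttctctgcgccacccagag
Hadha: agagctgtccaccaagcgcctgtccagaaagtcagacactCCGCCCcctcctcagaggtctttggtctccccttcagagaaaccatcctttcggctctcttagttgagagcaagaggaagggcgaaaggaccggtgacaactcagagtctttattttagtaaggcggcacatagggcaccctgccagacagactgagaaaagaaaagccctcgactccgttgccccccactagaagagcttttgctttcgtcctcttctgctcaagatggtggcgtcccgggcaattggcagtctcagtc
Hadhb: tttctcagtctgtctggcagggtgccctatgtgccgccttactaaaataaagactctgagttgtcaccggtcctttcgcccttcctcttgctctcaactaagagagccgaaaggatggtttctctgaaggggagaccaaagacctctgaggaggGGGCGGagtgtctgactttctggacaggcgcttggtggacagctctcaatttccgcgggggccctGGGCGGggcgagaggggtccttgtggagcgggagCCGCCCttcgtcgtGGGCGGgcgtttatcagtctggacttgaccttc
The starts of Hadha and Hadhb lie 301 bases apart, and their windows share 200 bases. A promoter was found in the table for 8 of the 9 genes, and each of the 8 held a GC box on 1 strand or the other, against 33.1% of the 33469 promoters of the same length. Echdc2 held 3 GC boxes, Hadhb 4, Hadha 1 and Eci2 5. The box of Hadha lies in the 200 shared bases and is also 1 of the 4 of Hadhb, so these 2 windows are not separate cases. The 33.1% is over all promoters, not matched by gene type, and the difference was not tested. The annotated Eci2 gene begins at 30056274, before the start used for its window, 30075766. The nuclear receptor core site AGGTCA (or TGACCT) occurred once each in Echdc2, Echs1, Hadhb, Eci1 and Eci2, and in 16.2% of all promoters. A direct repeat of that site with 1 base between its copies, on either strand, was in 0 of the 8 windows and in 0.0538% of all promoters. These matches describe letters in a window and not binding.

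Median signals ran from 97.4 to 105, and 69.7% to 81.9% of probe sets lay above background, an array's own level, below which 95% of its 45 bacterial controls fell (21.2 to 49.2). The GAPDH ratio of 3′ to 5′ probe sets, a measure of RNA integrity, was 1.38 to 1.72 in BN and 1.42 to 2.01 in LOU, highest on LOU array 4, which was also the lowest array for 6 of the 8 relatives. The same ratio for actin was 3.47 to 5.39 in BN and 3.85 to 4.59 in LOU. Of the smooth muscle markers 11 of 12 were measured, all above background on at least 1 array, with Acta2 at 9960 to 14561 over all 10 arrays. Adventitial fibroblast markers were below 0 (BN minus LOU, log2) in 10 of 11, with a median of -0.53, and 1 of 11 passed the test (Ogn, lower in BN), against 0.788% of all probe sets. Their list means (centred log2) did not overlap, at most -0.08 in BN and at least 0.02 in LOU. Means of the striated muscle list did not overlap either (at least -0.08 in BN, at most -0.09 in LOU), and Myh1 passed in a dimmer probe set only. In nerve markers 1 of 12 passed (Mbp, higher in BN), with BN array 3 standing apart at a list mean of 2.22 against at most 0.29 on the other 9 arrays. LOU array 1 stood apart in lymphocyte markers, at 1.71, and in macrophage markers, at 0.98, the other 9 arrays being below 0.06 in both. The median log2 difference of the 8 relatives, 0.45, was 0.51 without BN array 3 and 0.68 without LOU array 1. The part of these cell types and of RNA quality in the results below was not tested.

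Echdc2 signal was 6.6, 2.6, 7.7, 6.3 and 4.2 on BN arrays 1 to 5, and 189.6, 159.7, 190.5, 143 and 179 on LOU arrays 1 to 5. No BN array came above background and all 5 LOU arrays did, with no overlap between the strains. These values come from the only Echdc2 probe set, and whether the strains differ in sequence under its probes was not tested. The BN signals were 6.78% to 21.5% of their array's background level, and the LOU signals were 4.29 to 7.24 times theirs. Means were 5.48 ± 2.05 (SD, n = 5) in BN and 172 ± 20.6 (SD, n = 5) in LOU, and LOU was at least 5.12-fold higher when each BN array is set at its background level. On the log2 scale the measured difference was -5.07, which rests on BN values below background. Within LOU the gene was steady, with a coefficient of variation of 12.0% and a log2 range of 0.41.

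**Figure D1:**
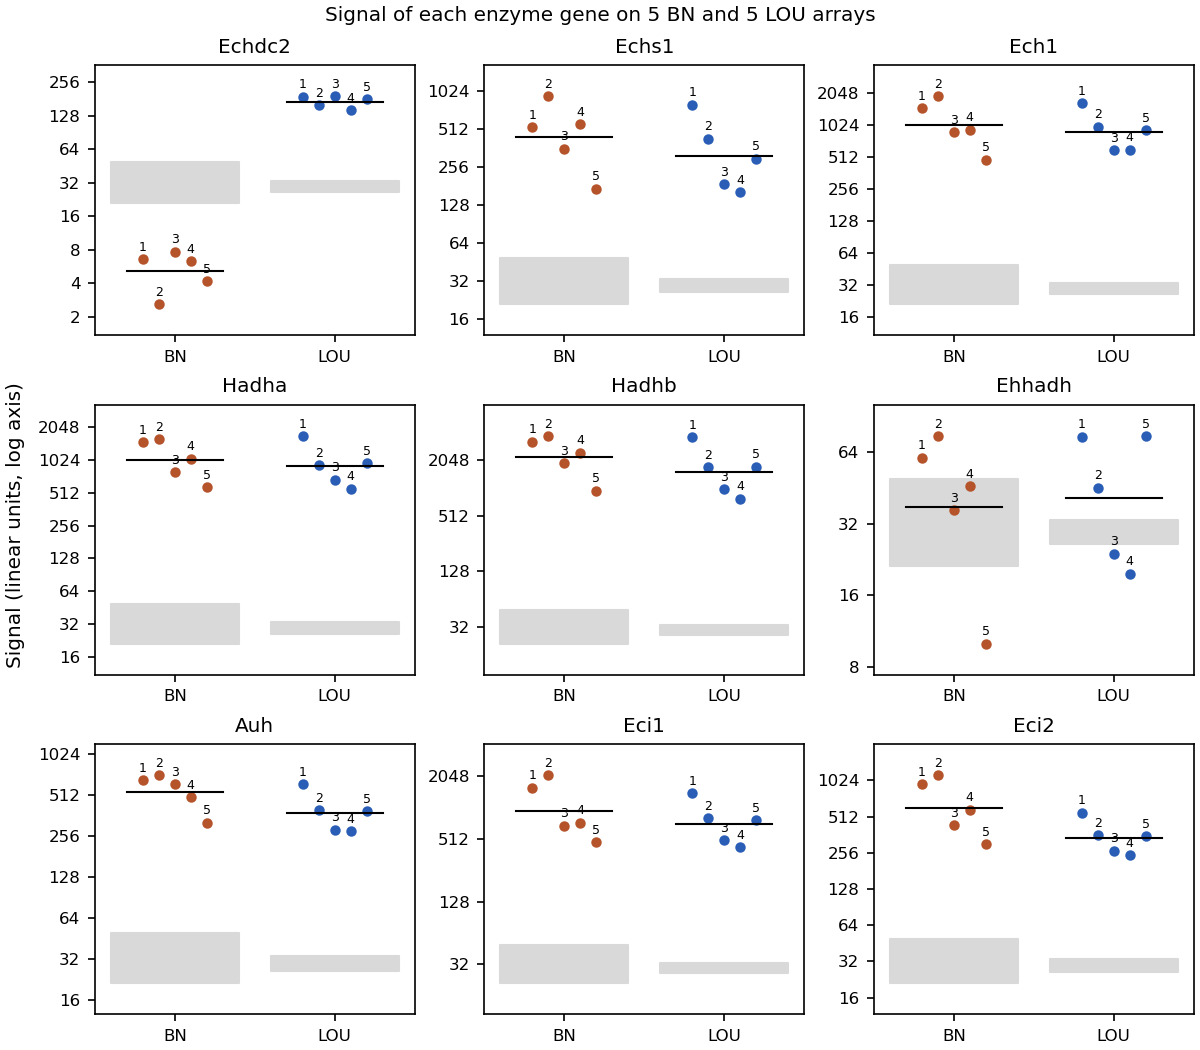
Signal (linear units on a log axis) of the 9 genes on BN arrays 1 to 5 and LOU arrays 1 to 5, each point 1 array with its number, the line the geometric mean and the grey band the range of the array background levels. Echdc2 lies below the band on all 5 BN arrays and above it on all 5 LOU arrays, while the strains overlap in each of the other 8 genes.

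None of the 8 relatives passed the test between the strains. In limma's fit over all 15866 probe sets, 0 of 8 had an adjusted p under 0.05 and the lowest was 0.376, against 0.788% of all probe sets called. At an unadjusted p under 0.05, 1 of 8 passed (Eci2), against 13.3% of all probe sets. Signals of BN and LOU overlapped in all 8, against 4.38% of genes whose strains did not overlap. The difference was above 0 in 7 of 8 with a median log2 difference of 0.45, beside 47.6% of genes above 0 and a median of -0.02 over all genes. Their standard errors, 0.28 to 0.59 on the log2 scale, were wide, and 70.9% of genes had one below the lowest of the 8. The intervals below therefore leave room for differences in either direction for 7 of the 8.

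The trifunctional protein carries out the last 3 steps of the cycle on long chains. Its alpha subunit Hadha, a hydratase and dehydrogenase, was at 1502, 1586, 797.5, 1055 and 574 in BN and 1707, 923, 677, 558 and 962 in LOU. Its beta subunit Hadhb, the thiolase, was at 3228, 3737, 1892, 2465 and 957 in BN and 3644, 1711, 986, 780.4 and 1737 in LOU. Both subunits were high on BN arrays 1 and 2 and LOU array 1, and low on BN array 5 and LOU arrays 3 and 4. The log2 difference of Hadha was 0.20 ± 0.36 (SE), with a 95% interval of -0.60 to 1.00 and a limma adjusted p of 0.849. That of Hadhb was 0.54 ± 0.47 (SE), with an interval of -0.51 to 1.58 and a limma adjusted p of 0.664.

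Echs1 is the short-chain enoyl-CoA hydratase of mitochondria and also acts in valine breakdown. Its signal was 534, 934, 361, 562 and 174 in BN and 802, 432, 189, 164 and 301 in LOU. The spread within a strain, 5.38-fold from the lowest to the highest BN array, was larger than the difference between the means of 513 ± 282 and 378 ± 260 (SD, n = 5 each). The log2 difference was 0.49 ± 0.52 (SE), interval -0.67 to 1.65, with a limma adjusted p of 0.729.

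Auh is the hydratase of the leucine pathway, which acts on methylglutaconyl-CoA, and it also binds AU-rich RNA. Auh was at 659, 711, 610.3, 492 and 319.7 in BN and 613, 393, 283, 278 and 389.6 in LOU. BN arrays 1 to 3 stood near or above the highest LOU array, and BN array 5 lay among the LOU arrays. Means were 558 ± 156 in BN and 391 ± 136 in LOU (SD, n = 5 each), a log2 difference of 0.52 ± 0.28 (SE), interval -0.09 to 1.14, with a limma adjusted p of 0.458.

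Eci1 and Eci2 are enoyl-CoA isomerases that serve unsaturated fatty acids, Eci1 in mitochondria and Eci2 also in peroxisomes. Eci2 was at 956.5, 1125, 433, 582 and 302 in BN and 552, 359, 266, 245 and 354 in LOU. BN arrays 1, 2 and 4 were above all LOU arrays, while BN array 5 was below 3 of them. BN was 1.78-fold higher (95% interval 1.00 to 3.17), a log2 difference of 0.83 ± 0.37 (SE) with an unadjusted p of 0.0495 and an adjusted p of 0.376 by limma. The brighter Eci1 probe set read 1593, 2085, 685.5, 734 and 477 in BN and 1406.5, 808, 496.5, 427 and 772 in LOU. Its log2 difference was 0.42 ± 0.45 (SE) with a limma adjusted p of 0.732. The dimmer Eci1 probe set was above background on 3 BN and 4 LOU arrays and gave 0.37 ± 0.54 (SE), adjusted p 0.811 by limma.

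Ech1, the dienoyl-CoA isomerase, read 1471, 1905, 879.8, 926 and 485 in BN and 1638.5, 990.3, 598, 599.9 and 916 in LOU, with a log2 difference of 0.21 ± 0.40 (SE) and a limma adjusted p of 0.855. The peroxisomal bifunctional enzyme Ehhadh read 60.8, 75.1, 36.5, 46.2 and 10.0 in BN and 74.6, 45.4, 23.9, 19.7 and 74.9 in LOU. Ehhadh was above background on 4 BN and 3 LOU arrays and was the 1 relative with a difference below 0. Its log2 difference was -0.13 ± 0.59 (SE), interval -1.43 to 1.18, with a limma adjusted p of 0.950.

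The 8 relatives shared their order over the arrays. BN array 2 was among the 2 highest of the 10 arrays for all 8, and LOU array 1 among the 3 highest for 7. BN array 5 and LOU arrays 3 and 4 were the 3 lowest for all 8. After centring within strains the 28 pairs of relatives correlated at Pearson r 0.86 to 0.99 (median 0.93) over the same 10 arrays, given as a description. By the same measure, the genes most like the mean of Hadha and Hadhb were Gpd2 and Coq9 (r = 0.996 each), Letmd1 (0.994), Cidea (0.993) and Kgd4 (0.993), of which Letmd1 and Cidea are on the brown adipocyte list used below.

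Brown adipocyte and general adipocyte markers both ran with the relatives. Of 17 brown adipocyte markers 14 were measured, and the mean of 13 of them (centred log2, Cpt1b left out because it is also on the beta-oxidation list) was 1.24, 1.26, -0.13, 0.45 and -0.96 on BN arrays 1 to 5. On LOU arrays 1 to 5 it was 0.46, -0.05, -1.14, -1.24 and 0.11. Ucp1, the uncoupling protein that defines brown fat, ran from 1005 to 12345 in BN and from 485 to 5451 in LOU. The summed signal of the list was 3171 to 24180 in BN and 2100 to 14192 in LOU, and that of 21 measured adipocyte markers of 24 was 12754 to 59378 and 17390 to 63615. The mean of the adipocyte markers was 0.73, 0.95, -0.31, 0.48 and -1.18 in BN and 0.95, 0.10, -0.78, -1.02 and 0.07 in LOU. BN array 2 and LOU array 1 were its 2 highest arrays, and BN array 5 and LOU arrays 3 and 4 its 3 lowest. Ppara, on the brown list, and Lep, on the adipocyte list, were above background on no array. The median log2 difference of the 14 brown markers, 0.62, was 0.28 without BN array 2, 0.91 without BN array 5 and 0.36 with a floor of 32. Without the dimmest 40% of probe sets, 8 of the 14 remained. In whole tissue, fewer cells of a type and less RNA per cell cannot be told apart.

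Within strains each relative correlated with both marker means, over 10 arrays and 16 relations in all, those with the adipocyte mean computed after the others had been seen. For Hadha and the brown mean Pearson r was 0.96 (permutation p = 0.00011, adjusted 0.00034) and Spearman rho 0.96 (permutation p = 0.00011, adjusted 0.00059). The lowest r was that of Auh, 0.89 (permutation p = 0.0018, adjusted 0.0018), with rho 0.88 (permutation p = 0.0016, adjusted 0.0019). Spearman rho ran from 0.84 (Echs1) to 0.98 (Eci1), and the highest adjusted permutation p of any of the 8 was 0.0018 for r and 0.0058 for rho. Without the 2 arrays farthest from the median, BN array 5 and LOU array 4, r was 0.76 for Auh and 0.93 for Hadha. With the adipocyte mean r was 0.91 (Auh) to 0.99 (Hadhb) and rho 0.85 (Ehhadh) to 0.95, with highest adjusted permutation p of 0.0018 and 0.0043, and r without the same 2 arrays was 0.80 (Auh) to 0.97 (Hadhb). Whether the tie was closer to either list was not tested. The share of all genes that correlate as closely was not computed, so these values do not set the family apart. In order of falling brown marker mean (LOU arrays 1, 5, 2, 3 and 4), Echdc2 read 189.6, 179, 159.7, 190.5 and 143. It followed the marker order on 4 of the 5 arrays and not on array 3, and 5 arrays are too few for a correlation. Among the relatives only Hadha and Hadhb kept that order on every LOU array. Echs1, for example, read 432 on LOU array 2 and 301 on LOU array 5.

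**Figure D2:**
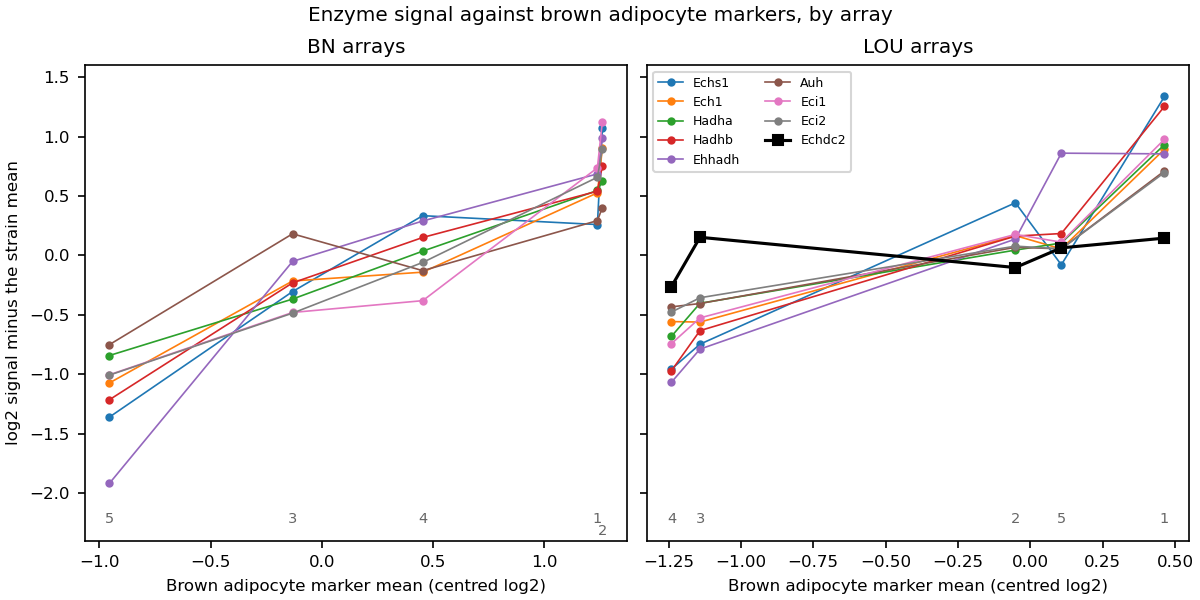
log2 signal minus the strain mean of each enzyme against the mean of the brown adipocyte markers (centred log2), left BN and right LOU, 1 point per array and array numbers along the bottom. The 8 relatives climb with the marker mean in both strains, though in LOU only Hadha and Hadhb keep its order on every array. Echdc2 (black squares, LOU only because it is below background in BN) spans a log2 range of 0.41, with array 3 out of that order.

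With the brown marker mean as a covariate, the median log2 difference of the 8 relatives was -0.23 (all genes -0.01). Of the 8, 2 lay above 0 and 6 below, against 49% of all genes above 0. None of the 8 passed (lowest adjusted p 0.113 by limma, Ehhadh), against 0.637% of all probe sets. Hadha then stood at -0.31, Hadhb at -0.14, Echs1 at -0.24, Auh at 0.17 and Eci2 at 0.30. With the adipocyte marker mean the median of the 8 was 0.19, 6 lay above 0 (48.2% of all genes), and 0 of 8 passed, against 1.13% of all probe sets, and Eci2 had the lowest limma adjusted p (0.0903) at a log2 difference of 0.63. The sign of the difference turned for Hadha, Hadhb, Echs1, Ech1 and Eci1 with the brown marker mean. The brown markers themselves had a median log2 difference of 0.62 between the strains. Together with the correlations within strains, that gap fixes the direction of the shift, so the turn is not a separate result. Echdc2 stood at -5.04 and -5.06 with these covariates.

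**Figure D3:**
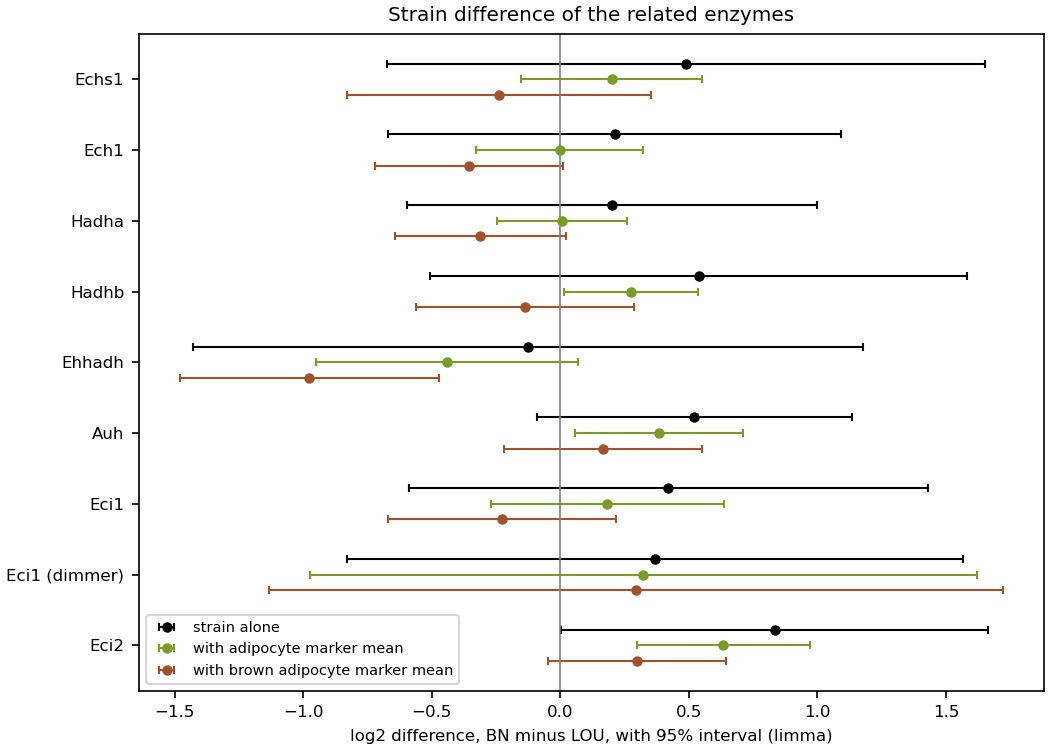
log2 difference, BN minus LOU, of each probe set of the 8 relatives with its 95% interval (limma), for strain alone, with the adipocyte marker mean and with the brown adipocyte marker mean as covariate. With strain alone 7 of the 8 brightest probe sets lie above 0, and with the brown marker mean 2 do.

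Other parts of the same pathways were read from fixed lists, in which 0 members passed the test for strain alone, against 0.788% of all probe sets. The counts above 0 in these lists stand beside 47.6% of all genes above 0, and those without overlap beside 4.38% of all genes. Of the 5 measured members of the wider hydratase family (of 6 listed), 1 was above 0, with a median of -0.17 (-0.31 without BN array 4 to -0.0071 without LOU array 1): Echdc3 at 0.12, Echdc1 at -0.17, Hibch at -0.18, Cdyl at -0.08 and Eci3 at -0.41 (limma adjusted p 0.241). Among the other steps of mitochondrial beta-oxidation 15 of 21 measured genes were above 0, with a median of 0.38 that ran from 0.15 (without LOU array 3) to 0.66 (without LOU array 1) with 1 array left out. Cpt2, which releases acyl-CoA inside mitochondria, was at 1.01 (adjusted p 0.523 by limma), and the carnitine carrier Slc25a20 at 0.94 (0.476). Acad9, an acyl-CoA dehydrogenase that also assembles complex I, was at -0.35 and Cpt1c, a brain-type carnitine palmitoyltransferase, at -1.60. In these last 2 genes the strains did not overlap, with adjusted p of 0.184 and 0.118 by limma.

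Peroxisomal genes were above 0 in 9 of 15, with a median of 0.04 (0.0092 without LOU array 3 to 0.20 without BN array 5). Abcd3, a peroxisomal fatty acid transporter, read 563 to 668 in BN and 446 to 519.8 in LOU without overlap (log2 0.33, limma adjusted p 0.205). With overlapping strains, Decr2 was at 0.88, Crot at -0.49 and Abcd2 at -0.59 (limma adjusted p 0.357, 0.277 and 0.383). Branched-chain amino acid genes were above 0 in 10 of 19, with a median of 0.03 (-0.07 without BN array 2 to 0.13 without BN array 5), and the ketone body enzyme Oxct1 was at -0.41 without overlap (limma adjusted p 0.235). Genes of the PPAR group, fatty acid sensing nuclear receptors and their targets, were above 0 in 11 of 15 with a median of 0.16, which was 0.01 without BN array 1 and 0.44 without BN array 5. Fabp3, a fatty acid carrier also on the brown adipocyte list, was at 1.75 (limma adjusted p 0.265), and Ppara was above background on no array. Citrate cycle genes were above 0 in 12 of 14, with a median of 0.32, which was 0.17 without BN array 2 and 0.49 without LOU array 1. Medians were -0.28 for the other beta-oxidation steps and -0.08 for the citrate cycle with the brown marker mean as covariate. With that covariate Acsl1 (-0.87, adjusted p 0.0211 by limma) and Abcd2 (-0.96, adjusted p 0.0187 by limma) passed, against 0.637% of all probe sets.

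**Figure D4:**
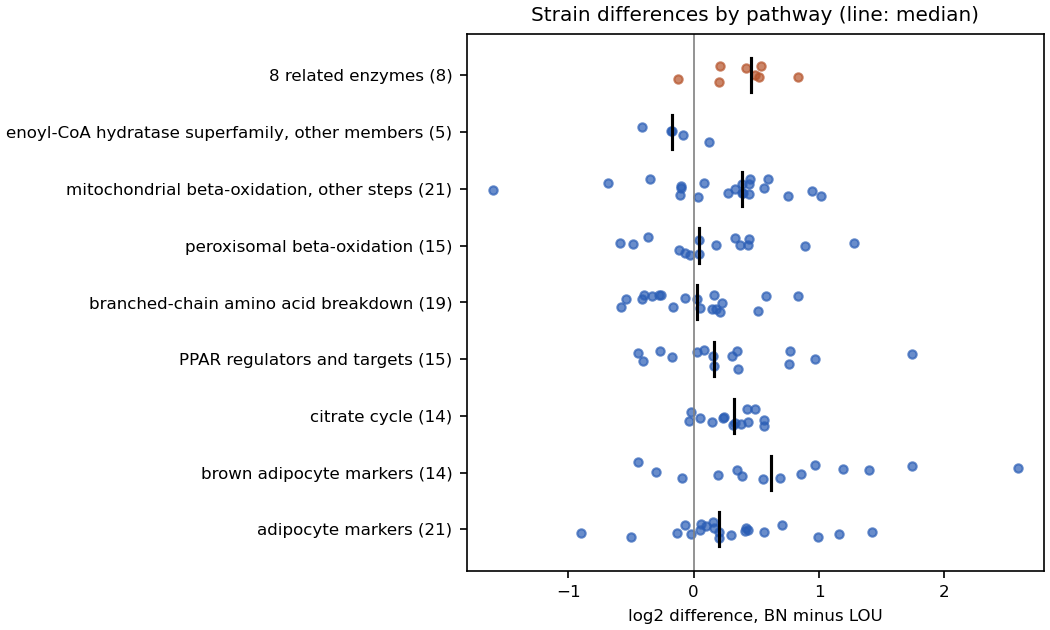
log2 difference, BN minus LOU, of each measured gene of the 8 relatives and of 8 pathway and marker lists (number of genes in brackets), the black line the median and 1 point per gene. The relatives have a median of 0.45, the other beta-oxidation steps 0.38 and the brown adipocyte markers 0.62, and no gene shown passed the adjusted threshold.

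In gene order along the chromosome (RefSeq, GRCr8), the 3 nearest measured genes on each side of Echdc2 were read. They lay 34.2 to 378 kb away, and none of the 6 passed the test, against 0.788% of all probe sets. On one side lay Scp2, a sterol and fatty acid carrier and peroxisomal thiolase, which read 1185 to 2638 in BN and 1463 to 2166 in LOU (log2 0.18, limma adjusted p 0.780). Its dimmer probe set gave 0.66, with a limma p of 0.014 unadjusted and 0.233 adjusted. Beyond it came Cpt2 (1.01, adjusted p 0.523 by limma) and Czib (0.79, adjusted p 0.147 by limma). On the other side Coa7 was above background on no array of either strain, so no difference could be read for it. Gpx7 and Prpf38a were at -0.18 and -0.05, with adjusted p of 0.654 and 0.929 by limma. The genes most like Echdc2 over the 10 arrays were Marveld1 (Pearson r = 0.98), Fgl2 (0.97), Zfp704 (0.96), Prps2 (0.96) and Vcam1 (0.96), a measure in which the strain difference takes part.

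**Figure D5:**
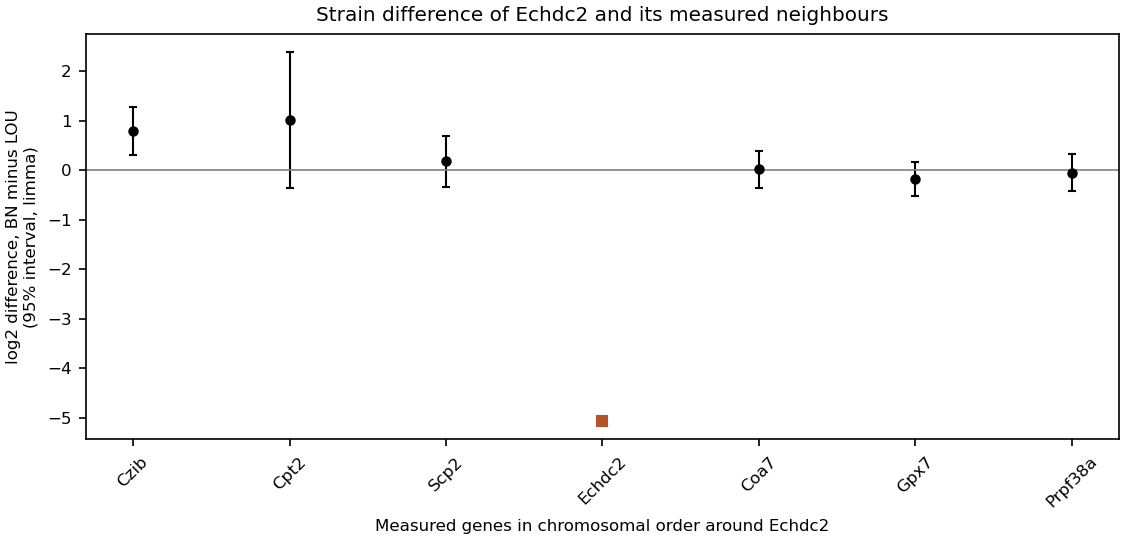
log2 difference, BN minus LOU, of Echdc2 (square, no interval because the gene was chosen by this difference) and of the 3 nearest measured genes on each side in chromosomal order, with 95% intervals (limma). Echdc2 lies at -5.07, and its neighbours lie between -0.18 and 1.01.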

How the data were processed

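Total RNA of abdominal aorta was measured on 10 Affymetrix arrays, 5 BN and 5 LOU, grouped by the strain label. The authors deposited 1 array intensity for each probe set. The submitters' processing notes name RMA, which gives log2 values, but these intensities span 0 to 22219.9 and share a trimmed mean (2% cut at each end) of 200.05 to 200.06, so they were read as linear values brought to one mean. Their log2 was analysed, with 4 zeros set to 0.1. A mean-based scaling can shift an array in which a few transcripts are very strong.

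Strains were compared with limma 3.58.1 (lmFit, eBayes, two-sided) in R 4.3.3 over 15866 probe sets, 57 controls left out. P-values were adjusted by Benjamini-Hochberg and called at 0.05. Of these, 12783 had 1 gene symbol, 312 several and 2771 none. Symbols were updated through the RefSeq table of GRCr8, and a gene was read from its probe set with the highest mean log2 signal. One further probe set lists Eci2 with Eci3 and was not used. Signal over background limits precision, since arrays give no counts. Correlations used 100000 permutations of arrays within strains. Alternatives were other normalizations, a dim filter, a floor, a pseudocount, a variance trend, array weights, a replicate block, marker covariates, probe set rules and each array left out. Genes were named by rule: all members, up to 4 genes per pathway list with the smallest p, the 3 nearest measured genes on each side of Echdc2 and the 5 most like it or the Hadha and Hadhb mean. Echdc3, Acsl1, Lpl, Acta2 and Lep fall outside that rule, picked with their values known. The members and lists were chosen with earlier results of these data known.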

Additional observations from a re-analysis of the deposited data

Results flagged for a closer look

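One value stood apart from the others of its strain. The dimmer Eci1 probe set read 11 on LOU array 3, while the other 4 LOU arrays read 41.0 to 60.7. On the log2 scale the gap was 0.77 of the range of the strain, against a critical value of 0.71 for 5 arrays. The reading of 11 lay below that array's background level of 32.9. Chance marks about 1 in 20 such groups, and 20 groups were examined. The brighter Eci1 probe set on the same array read 496.5, within the range of the other LOU arrays.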

How the results depend on the processing

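No relative of Echdc2 passed the adjusted threshold of 0.05 in limma under any of the 22 alternatives, and the lowest adjusted p over all of them was 0.0903 (Eci2 with the adipocyte covariate). Their median log2 difference ran from -0.23 to 0.69. Leaving out 1 array gave 0.18 (without BN array 2) to 0.69 (without BN array 5), and it was 0.24 without LOU array 4, 0.30 without LOU array 3 and 0.68 without LOU array 1. Of 175 values for single relatives 165 kept their direction. The brown marker covariate reversed Echs1 (-0.24), Ech1 (-0.36), Hadha (-0.31), Hadhb (-0.14) and Eci1 (-0.23), and the adipocyte covariate reversed Ech1 (-0.0024). With 1 array left out Ech1 ran from -0.014 (without BN array 2) to 0.48, Ehhadh from -0.39 to 0.35 (without BN array 5, and 0.09 without LOU array 1 or LOU array 5), and the dimmer Eci1 probe set from -0.069 (without LOU array 3) to 0.58. Echdc2 ran from -5.21 to -2.42, the latter with a floor of 32. The 125 probe sets called over all genes became 253 without the dimmest 40%, 242 with a variance trend, 204 with a pseudocount of 16 and 63 to 127 with 1 array left out (67 without BN array 2, 79 without BN array 4, and 65, 63, 75 and 78 without LOU arrays 2, 3, 4 and 5). With the replicate block the count was 23. Same-numbered arrays did not deviate together (r from -0.05 to 0.01), so the numbers were not taken to pair them, and no relative was called with the block. In the pathway, brown adipocyte and adipocyte lists Cpt1c passed without the dimmest 40% (253 of 9519 probe sets called), and Acad9 and Abcd3 with the floor (186 of 15866). With the adipocyte covariate Slc25a20, Abcd2 and Acly passed (1.13% of all probe sets), and with the brown covariate Acsl1, Abcd2 and Lpl (0.637%). Each was the only call in its list under that setting, in lists of 15 to 21 measured genes. Among the 11 adventitial fibroblast markers 1 also passed with the brown covariate. Acly is itself 1 of the 21 markers averaged in the adipocyte covariate, so its pass there is not a separate test. Echdc2, Ehhadh and the dimmer Eci1 probe set have no value without the dimmest 40%. The cause of these changes was not tested.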
